A study of Mus musculus with 8 samples.

Results

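Irx5 encodes a transcription factor of the Iroquois family. It was chosen by its higher level in the day 0 library labelled Kmt2d+/βgeo than in the day 0 library labelled wild type, and is 1 of the 9140 genes in the expression matrix. It is described here in each of 8 single-cell RNA-seq libraries, through its level, the cells that held it and the genes that varied with it. Since the day 0 contrast chose the gene, its day 0 difference is a description. Days 2, 4 and 8 are libraries outside that contrast, but earlier results of these data were known when the gene was chosen.

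Iroquois proteins are homeodomain factors of the TALE class, and the mouse genes lie in a pair of clusters, with Irx5 between Irx3 and Irx6 in one of them. They help to set the regional identity of embryonic tissue, including the patterning of the neural tube, the eye and the heart. In the neural tube their expression is best known from the midbrain, hindbrain and spinal cord, while hippocampal progenitors come from the dorsal telencephalon.

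The cells were primary neural progenitors from the dentate gyrus of mouse embryos, grown with EGF and FGF2 and sampled before (day 0) and 2, 4 and 8 days after these factors were withdrawn to start neuronal differentiation. Litters came from C57BL/6J dams and Kmt2d+/βgeo sires. The Kmt2d+/βgeo embryos carry 1 copy of the gene trap allele Mll2Gt(RRt024)Byg in Kmt2d, which encodes a histone H3 lysine methyltransferase, and model Kabuki syndrome. The comparison group is labelled C57BL/6J, and the growth protocol describes it as Kmt2d+/+ littermates. The labels put the harvest at embryonic day 18, whereas the study's methods give an earlier embryonic day. Each genotype and day has 1 library, so genotype, culture and embryo cannot be told apart, and within a day there is no replicate. Intervals below are 95% intervals that cover counting error only, and no source used here says whether embryos were pooled.

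The libraries held 2534 to 4900 cells, with median total UMIs (unique molecular identifiers, each marking 1 captured RNA molecule) per cell from 14243 to 23219 in 7 libraries. In Kmt2d+/βgeo day 8 the median was lowest, at 7926. Libraries shared from 0 to 10 cell barcodes per pair. The mean normalised count of Kmt2d was 0.193, 0.171, 0.295 and 0.290 on days 0, 2, 4 and 8 in libraries labelled Kmt2d+/βgeo and 0.157, 0.197, 0.237 and 0.241 in those labelled wild type. These levels do not check the labels, because no source used here gives the place of the trap relative to the counted 3′ end. The day 4 pair stood apart, since none of 7459 genes compared reached an absolute log2 ratio of 1 between its libraries. The library labelled Kmt2d+/βgeo at day 4 is therefore named by its label throughout, and the paired mean and the likeness over libraries are also given without that pair.

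The Irx5 gene (ENSMUSG00000031737) lies on the plus strand of GRCm38 chromosome 8, from 92357625 to 92376286, and GENCODE M21 annotates 2 transcripts for it. The divergent long noncoding RNA gene Crnde (ENSMUSG00000031736) lies on the minus strand from 92326033 to 92356120. The annotated starts of the 2 genes have 1504 bases between them. The promoter window of Crnde from RefSeq is printed because Crnde and Irx5 start back to back and were higher together in the results below. It runs from 250 bases before to 50 bases after the RefSeq start, at chr8:92356071-92356370 on the minus strand of GRCm38.p6, 5′ to 3′, with each CG pair in capitals.
Crnde promoter: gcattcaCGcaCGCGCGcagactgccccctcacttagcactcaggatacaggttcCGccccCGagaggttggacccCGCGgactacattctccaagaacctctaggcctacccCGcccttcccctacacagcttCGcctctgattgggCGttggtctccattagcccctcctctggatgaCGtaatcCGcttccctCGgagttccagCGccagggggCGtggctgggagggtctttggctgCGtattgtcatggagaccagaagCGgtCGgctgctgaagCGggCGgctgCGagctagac
The window holds 22 CG pairs and is 62.7% G or C. Over 32851 RefSeq promoters of this length the medians were 7 CG pairs and 52.7%, and 23.1% of these promoters held as many CG pairs as that of Crnde or more.

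Irx5 was high in 3 libraries, all labelled Kmt2d+/βgeo, and low in the other 5. Levels are given as normalised counts, which are UMIs per cell after each cell was scaled to the same sum of 8707.1 over the matrix genes. In the libraries labelled Kmt2d+/βgeo the mean normalised count of Irx5 was 0.281 (0.268 to 0.295, exact Poisson interval) at day 0, 0.385 (0.368 to 0.404) at day 2, 0.0599 (0.0513 to 0.0696) at day 4 and 0.367 (0.335 to 0.401) at day 8. In the libraries labelled wild type it was 0.0565 (0.0509 to 0.0625) at day 0, 0.0412 (0.0351 to 0.0482) at day 2, 0.0525 (0.0450 to 0.0606) at day 4 and 0.0467 (0.0389 to 0.0556) at day 8. The library labelled Kmt2d+/βgeo at day 4 lay at the wild-type level, and all 4 wild-type libraries lay below the lowest of the other 3.

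In order, the levels ran from Kmt2d+/βgeo day 2 through its days 8, 0 and 4 to wild type days 0, 4, 8 and 2. The intervals of Kmt2d+/βgeo days 2 and 8 overlapped, and that of day 0 lay below both. From day 4 of Kmt2d+/βgeo downwards each interval overlapped that of its neighbour in the order, although wild type day 2 lay below wild type day 0 with no overlap. Summed over cells, the high libraries held 1792 (day 0), 1805 (day 2) and 495.5 (day 8) estimated UMIs of Irx5, and the others 126 to 375.

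**Figure D1:**
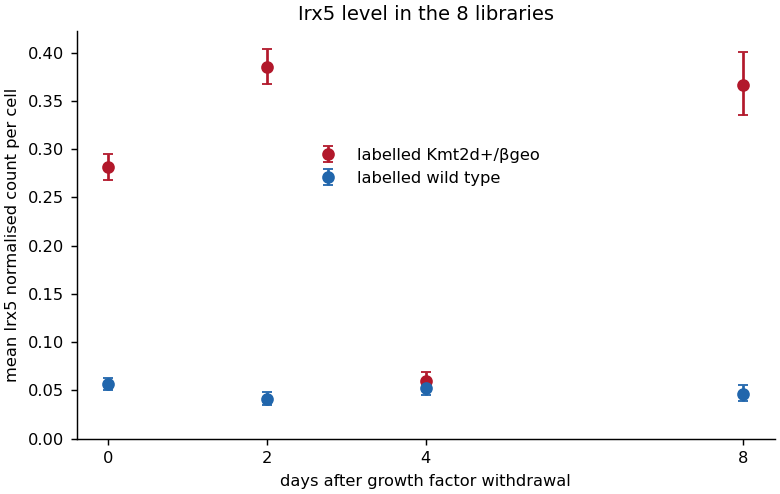
Mean normalised count of Irx5 per cell (linear axis) against days after growth factor withdrawal, with 1 point per library, red for libraries labelled Kmt2d+/βgeo and blue for wild type, and bars giving the exact Poisson 95% interval of the summed UMIs. Red points sit at 0.281, 0.385 and 0.367 on days 0, 2 and 8, while on day 4 the red point (0.0599) lies beside the blue one (0.0525).

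Within a day, the mean level of Irx5 in Kmt2d+/βgeo day 0 was 4.98-fold that in wild type day 0, the contrast it was chosen by. In the libraries outside that contrast, it was 9.35-fold, 1.14-fold and 7.86-fold on days 2, 4 and 8. As log2 ratios these were 2.32, 3.22, 0.19 and 2.97. After each cell was thinned to 3000 UMIs, so that every library had the same depth, the log2 ratios were 2.18 (1.85 to 2.52, exact conditional interval) at day 0, 3.37 (2.93 to 3.84) at day 2, 0.16 (-0.47 to 0.78) at day 4 and 2.82 (2.35 to 3.32) at day 8. The day 4 interval included 0 and lay below those of the other days. Thinned to 1500 UMIs, the log2 ratio was 3.04 at day 0 and 3.57 at day 8, further from the values of all UMIs, and 3.53 and 0.41 on days 2 and 4. These values have no interval and rest on few molecules. At that depth wild type days 0 and 8 had 26 and 14 cells with 1 Irx5 UMI and 1 and 0 cells with 2.

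Paired by day over days 2, 4 and 8, the log2 ratio of Irx5 averaged 2.13 ± 1.68 (SD, n = 3 pairs) and was above 0 in 3 of 3 pairs. A two-sided exact sign-flip permutation test gave p = 0.25, the smallest that 3 pairs allow, so this test could not pass a threshold of 0.05. Without day 4 the mean was 3.10 ± 0.177 (SD, n = 2 pairs), with an exact permutation p of 0.5, again the smallest possible. The pairs are days of the same label contrast and not independent replicates. The SD and p therefore do not measure the spread between embryos or cultures. The test was added after all ratios were seen to be above 0, which fixed its p in advance.

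Among the genes compared, few differed more, which at day 0 follows in part from the choice of Irx5. Only genes with a mean normalised count of at least 0.1 in either library of a day were compared, and a gene was counted where its log2 ratio was at least 1 or at most -1. On days 0, 2 and 8 Irx5 passed the minimum only through the library labelled Kmt2d+/βgeo. Its wild-type means lay under the minimum, so Irx5 could be compared only on days when it was higher in the other library. At day 0, 4 of 7117 genes had a higher log2 ratio than Irx5 and 0 were lower by more than Irx5 was higher, and 0.674% of genes were counted as higher and 0.871% as lower under the Kmt2d+/βgeo label. For day 2, 2 of 7364 genes had a higher ratio and 2 were lower by more than Irx5 was higher, with 1.68% of genes higher and 1.15% lower. At day 8, 4 of 7576 genes had a higher ratio and 1 was lower by more than Irx5 was higher, with 2.06% higher and 2.81% lower. At day 4 the shares were 0% higher and 0% lower, and Irx5 itself fell under the minimum mean. The median log2 ratio of all genes compared was -0.037, -0.0020, 0.043 and 0.011 on days 0, 2, 4 and 8.

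Over time, Irx5 was higher at days 2 and 8 than at day 0 in the high libraries, and it was low throughout in those labelled wild type. Relative to day 0, the log2 ratio of its mean in libraries labelled Kmt2d+/βgeo was 0.45 at day 2 and 0.38 at day 8, and it fell by 2.23 at day 4. In thinned cells days 2, 8 and 4 gave 0.41 (0.21 to 0.60), 0.18 (-0.076 to 0.42) and -2.41 (-2.91 to -1.94), and the day 8 interval included 0. In libraries labelled wild type the log2 ratios to day 0 were -0.45, -0.10 and -0.28 at days 2, 4 and 8. The thinned values were -0.79 (-1.33 to -0.26), -0.38 (-0.91 to 0.13) and -0.47 (-1.02 to 0.068), and the intervals of days 4 and 8 included 0.

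The higher level came with more cells that held Irx5. In the libraries labelled Kmt2d+/βgeo, 21.1% of cells had at least 1 Irx5 UMI at day 0, 22.1% at day 2, 4.18% at day 4 and 10.5% at day 8. Under the wild-type label these shares were 4.94%, 2.34%, 3.25% and 2.33%. Depth differed between libraries, so the shares were also taken in cells thinned to 3000 UMIs, which left out 809 of the 2965 day 8 cells labelled Kmt2d+/βgeo and at most 30 cells of any other library. At that depth 7.44% (6.67 to 8.27, exact binomial interval) of cells labelled Kmt2d+/βgeo had an Irx5 UMI at day 0, 10% (9.17 to 10.9) at day 2, 1.4996% (1.06 to 2.05) at day 4 and 8.72% (7.56 to 9.99) at day 8. Under the wild-type label the shares were 1.73% (1.38 to 2.14), 1.02% (0.740 to 1.38), 1.40% (1.03 to 1.84) and 1.22% (0.866 to 1.66). Before thinning the day 8 share lay below that of day 2, and after it the intervals of both overlapped. No class of cells known to lack Irx5 was set apart in these libraries, and how much of the low shares came from free RNA was not tested.

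Most cells with Irx5 held a single UMI of it. Of thinned cells labelled Kmt2d+/βgeo at day 0, 92.6% had no Irx5 UMI, 6.56% had 1, 0.674% had 2 and 0.209% had 3 or more. Day 2 had 8.80%, 1.10% and 0.102% of cells with 1, 2 and 3 or more, and day 8 had 7.79%, 0.881% and 0.0464%. Among cells with the gene, 11.9%, 12.04% and 10.6% had 2 or more UMIs on days 0, 2 and 8. The ratio of variance to mean of the thinned counts was 1.25, 1.17 and 1.11 in these 3 libraries and 1.06 to 1.26 in the other 5. It is 1 when molecules fall on cells at random with equal chance, but at means this low it stays near 1 for other spreads too, so these values do not tell an even spread from an uneven one. Before thinning, the highest value in 1 cell was 12.2 estimated UMIs, in the day 0 library labelled Kmt2d+/βgeo.

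**Figure D2:**
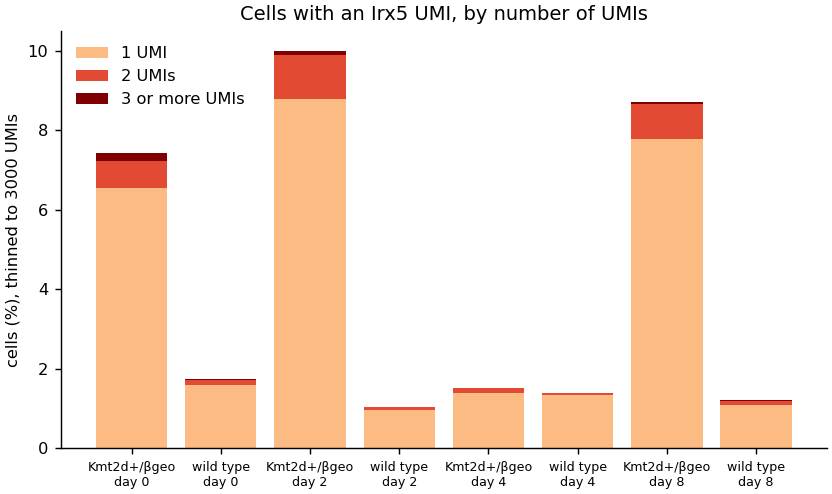
Share of cells with an Irx5 UMI in each library after thinning to 3000 UMIs per cell, as stacked bars from 0 for cells with 1, 2 and 3 or more UMIs. The bars of Kmt2d+/βgeo days 0, 2 and 8 reach 7.44%, 10% and 8.72%, most of it cells with 1 UMI, and the other 5 bars lie between 1.02% and 1.73%.

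Part of the Irx5 signal consisted of split molecules. The authors' counter divides a molecule that cannot be given to 1 feature, and such values show here as 0.5 UMI. They made up 31.2%, 31.9% and 42.2% of cells with a value above 0 in libraries labelled Kmt2d+/βgeo at days 0, 2 and 8, and 39.2% to 53.4% in the other 5. Counted only from values of at least 1 UMI, the log2 ratio of Irx5 between labels was 2.47, 3.58, 0.16 and 3.11 on days 0, 2, 4 and 8, and from smaller values it was 1.61, 2.07, 0.27 and 2.61. Both kinds of value were thus higher under the Kmt2d+/βgeo label on days 0, 2 and 8.

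Around Irx5, the gene that differed with it was Crnde. Of 15 listed neighbours 8 had a row in the matrix. The cluster mates Irx3 and Irx6 had none and were not analysed here, nor were Irx1, Irx2 and Irx4. The mean normalised count of Crnde under the Kmt2d+/βgeo label was 0.197, 0.182, 0.0910 and 0.358 on days 0, 2, 4 and 8, and under the wild-type label 0.101, 0.0710, 0.0753 and 0.0819. The log2 ratios of Crnde were 0.97, 1.36 and 2.13 on days 0, 2 and 8, each below that of Irx5. At day 4 it was under the minimum mean. Crnde thus passed the threshold on days 2 and 8, lay just under it on day 0, and was low in both day 4 libraries. On days 2 and 8 its wild-type means lay under the minimum of 0.1. On those days it could therefore be compared only by being higher under the Kmt2d+/βgeo label.

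The other neighbours described here showed no such difference in that direction. Fto, an RNA demethylase gene whose introns hold known long-range enhancers of the Irx3 and Irx5 region, had log2 ratios of -0.36, -0.33 and 0.02 on days 0, 2 and 8. Rpgrip1l, a ciliary transition zone gene that starts beside Fto, had 0.07, -0.26 and -0.06. Rbl2, a retinoblastoma family gene, had -0.08, -0.13 and 0.22. Chd9, a chromatin remodelling helicase, had -0.30, -0.28 and 0.38. Aktip lay at -0.17, 0.14 and 0.35. Gnao1, a G protein subunit abundant in neurons, was lower, at -0.61, -0.68 and -1.36. Its mean normalised count at day 8 was 0.238 under the Kmt2d+/βgeo label and 0.614 under the wild-type label.

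Within 4 Mb of the Irx5 start there were 36 other genes in the matrix. At day 0 none of 33 compared passed a log2 ratio of 1 in either direction. Of 35 compared at day 2, 1 was higher, and it was Crnde, beside 1.68% of all genes. At day 8, Crnde was higher and Gnao1 and Bbs2 were lower among 34 compared, with a log2 ratio of -1.01 for Bbs2, a ciliary trafficking gene named after its value was seen. Over all genes compared that day 2.06% were higher and 2.81% lower, so counts of 1 and 2 among 34 are too small to tell the window from the rest. The median log2 ratio of these genes was -0.07 on each of the 3 days. Irx5 and Crnde were thus the genes of this window that were higher past the threshold on any of these days. On days 2 and 8 both passed the minimum mean only through the library labelled Kmt2d+/βgeo.

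**Figure D3:**
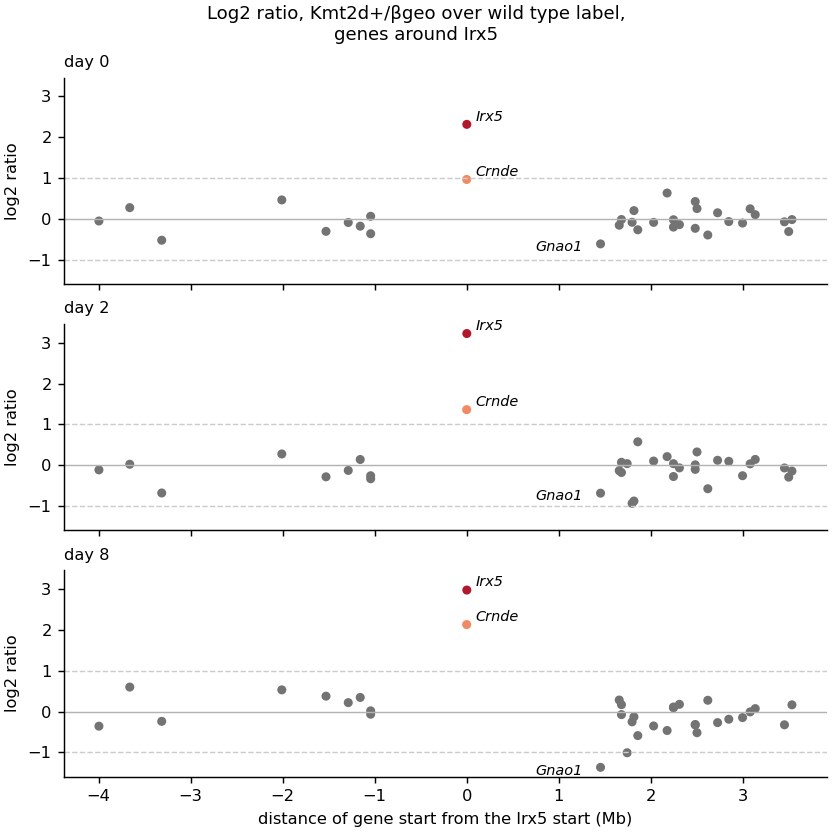
Log2 ratio between labels (Kmt2d+/βgeo over wild type) of the mean level of genes within 4 Mb of Irx5 against the distance of each gene start from the Irx5 start, for days 0, 2 and 8, with dashed lines at -1 and 1. Irx5 (2.32, 3.22 and 2.97) and Crnde (0.97, 1.36 and 2.13) stand above the other genes of each panel, and Gnao1 is lowest at day 8 (-1.36).

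Other genes that mark brain regions differed in both directions. Of 109 listed regional genes outside the Iroquois family and the locus, 20 had a row in the matrix. At day 0, 1 was higher and 1 lower among 18 compared, beside 0.674% and 0.871% of all genes. On day 2 the counts were 2 higher and 1 lower of 19, beside 1.68% and 1.15%. On day 8 they were 2 higher and 1 lower of 18, beside 2.06% and 2.81%. None of 17 passed at day 4. The median log2 ratio of these genes was -0.21, -0.08, 0.08 and 0.48 on days 0, 2, 4 and 8. With so few members measured, the counts describe the named genes below and not the regions.

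The gene of this kind that differed most was Nr2f2, which encodes the nuclear receptor COUP-TFII, known from the caudal telencephalon and its interneurons and listed here under hippocampus and dentate gyrus. Its mean normalised count under the Kmt2d+/βgeo label was 0.304, 0.413, 0.0663 and 0.645 on days 0, 2, 4 and 8. Under the wild-type label it was 0.0864, 0.0631, 0.0617 and 0.0694. These lay under the minimum of 0.1, so Nr2f2 could be compared only on days when it was higher in the other library. The log2 ratio was 1.81, 2.71 and 3.21 on days 0, 2 and 8, below that of Irx5 on days 0 and 2 and above it on day 8, and the day 4 pair lay together at the low level, as for Irx5.

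Of the rest of that list of 10, of which 8 were in the matrix, Hopx was the only other gene past the threshold. It encodes a small homeodomain protein of dentate and outer radial glia. Its mean normalised count at day 8 was 6.16 under the Kmt2d+/βgeo label and 1.82 under the wild-type label, a log2 ratio of 1.76, whereas the ratio was 0.94 at day 0 and -0.06 at day 2. Zbtb20, a zinc finger factor needed for hippocampal identity, was the most abundant member and ran from 3.52 to 18.4 over the 8 libraries. Its log2 ratio was -0.74, -0.32, 0.15 and -0.37 on days 0, 2, 4 and 8. Prox1, the factor that specifies dentate granule cells, was found in each library at a mean of 0.198 to 0.326, with log2 ratios of -0.05, -0.07, -0.015 and 0.31. Cells under both labels thus held RNA of these hippocampal genes. They also held RNA of genes listed under other regions, such as Tcf7l2 (diencephalon) at means of 0.720 to 1.57. Dbx2 (hindbrain and spinal cord) ran from 0.521 to 2.42. These levels do not tell the region of the cells.

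Of the dorsal telencephalon list of 18, 3 genes were in the matrix, and Emx1, Emx2 and Lhx2 were not analysed here. Nr2f1, the COUP-TFI gene, had log2 ratios of 0.37, 0.26, 0.02 and 0.69 on days 0, 2, 4 and 8, and Pax6 had -0.17, -0.08, -0.13 and -0.07. In the ventral telencephalon list 2 of 16 were measured. Meis2, a TALE homeodomain factor of the developing striatum, was lower under the Kmt2d+/βgeo label, with a mean of 0.311 against 0.706 at day 0, 0.641 against 1.28 at day 2 and 0.620 against 1.44 at day 8. Its log2 ratios were -1.18, -1.003 and -1.21 on those days and -0.02 at day 4. Meis2 was thus lower in the libraries where Irx5 was higher. The other measured gene, Ebf1, a factor of striatal neurons, had -0.13, 0.06, 0.05 and 0.76 on days 0, 2, 4 and 8 and did not share that direction at days 2 and 8.

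The lists for more caudal regions held 1 measured gene each. In the diencephalon list, Tcf7l2, a Wnt pathway factor of the thalamus, had log2 ratios of -0.39, -0.55, 0.13 and -0.22 on days 0, 2, 4 and 8, and 1 of 19 members was measured. In the midbrain list it was 1 of 17, Nr4a2, a nuclear receptor of dopaminergic neurons. Its means were 0.204 against 0.0886 at day 2 and 0.128 against 0.0719 at day 8, with log2 ratios of 1.21 and 0.84. On both days its wild-type mean lay under the minimum of 0.1, so it could be compared only by being higher under the other label. Of the hindbrain and spinal cord list 1 of 12 was measured, Dbx2, a homeodomain factor of the neural tube, with 0.45, 0.25, 0.08 and 0.85. No gene of a Hox protein, which would mark hindbrain or spinal cord, had a row. Only 5 of 9 listed progenitor markers had one, so a missing row does not show that a gene was not expressed. Hotairm1, a noncoding RNA gene of the HoxA cluster that is on no list and was named after its values were seen, had means of 0.508, 0.479, 0.239 and 1.09 under the Kmt2d+/βgeo label and 0.163, 0.261, 0.279 and 0.342 under the wild-type label on days 0, 2, 4 and 8. Its log2 ratios were 1.64, 0.87, -0.22 and 1.67, and its r with Irx5 was 0.822 over the 8 libraries and 0.801 without the day 4 pair. Of the dorsal midline and cortical hem list 4 of 17 were measured, and Wnt5a, a Wnt ligand, had -0.93, -0.49, 0.06 and 0.13. Apart from Nr4a2 at day 2, none of the listed genes in this paragraph passed a log2 ratio of 1.

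Cell type markers differed between labels on some of the same days. The summed mean of the 5 measured astrocyte markers of 8 was 16.2, 214, 252 and 101 normalised counts on days 0, 2, 4 and 8 under the Kmt2d+/βgeo label and 8.20, 158, 233 and 238 under the wild-type label. Most of this was Apoe, a lipid carrier gene, with log2 ratios of 1.26 at day 0 and -1.28 at day 8, and Gja1, a gap junction gene, was lower at day 2 (-1.26). The sums of days 0 and 2 follow Apoe, which the other members did not all share in sign. At day 0 S100b had a log2 ratio of 0.47, Gja1 -0.07, Aldh1l1 -0.38 and Slc1a2 -0.53, with a list median of -0.07. At day 2 S100b had -0.91, Aldh1l1 -0.68 and Slc1a2 -0.85 against 0.49 for Apoe, with a list median of -0.85. At day 8 Aldh1l1 had -0.94, S100b -0.82, Gja1 -0.57 and Slc1a2 0.44, with a list median of -0.82. For the 5 measured progenitor markers of 9 the sums were 80.7, 143, 91.7 and 76.8 under the Kmt2d+/βgeo label and 70.8, 120, 88.1 and 123 under the wild-type label, with Vim as the most abundant. At day 0 Fabp7 had a log2 ratio of 0.36, Vim 0.22 and Notch1 0.06. Slc1a3 (-0.27) and Sox9 (-0.75) were below 0 that day, with a list median of 0.06. At day 2 Vim had a log2 ratio of 0.70 and Fabp7 0.08, while Sox9 (-0.56), Slc1a3 (-0.73) and Notch1 (-0.16) were below 0, and the median of the list was -0.16. At day 8 Vim had means of 43.7 and 86.6, which is most of the gap in the sums, and a log2 ratio of -0.99. Slc1a3 had -0.46, Fabp7 -0.05, Sox9 0.05 and Notch1 0.42 that day, with a list median of -0.05. The 6 measured cell cycle genes of 10 summed to 10.5, 1.75, 2.19 and 1.76 against 8.89, 1.56, 2.15 and 2.01, and Top2a was lower at day 8 (-1.15). The day 8 sums hide the spread of this list, with log2 ratios of -0.96 for Mcm6, -0.94 for Atad2, -0.91 for Nasp, -0.08 for Smc4 and 0.43 for Tipin and a list median of -0.93.

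Of 8 neuron markers, Map2 and Rbfox3 were measured. They summed to 2.87 to 4.17 under the Kmt2d+/βgeo label and 2.95 to 4.01 under the wild-type label. Map2, most of this sum, had log2 ratios of -0.03, -0.18, 0.06 and 0.16 on days 0, 2, 4 and 8. Rbfox3 had -0.05 at day 4 and 1.26 at day 8. At day 8 it passed the minimum mean only under the Kmt2d+/βgeo label (0.113 against 0.0472). Olig2, the 1 measured marker of 8 for the oligodendrocyte lineage, had -0.55, -0.42 and 0.70 on days 0, 2 and 8. Reln, the 1 of 4 for Cajal-Retzius cells, had means of 0.008 to 0.151 over the 8 libraries. The lists for microglia, endothelium, mural cells and fibroblasts, choroid plexus and ependyma had 0 genes in the matrix, which does not show that such cells were missing. The part of these marker differences in that of Irx5 was not tested. Among cells without a Top2a UMI, the log2 ratio of Irx5 was 2.15, 3.22, 0.20 and 3.02 on days 0, 2, 4 and 8. Before thinning, 183, 138 and 34 cells labelled Kmt2d+/βgeo held Top2a on days 2, 4 and 8. Under the wild-type label 112, 155 and 103 cells did. Leaving out so few cells could hardly move the ratio on those days, and day 0 is the contrast that chose Irx5.

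Over the 8 libraries, the gene whose level ran most like that of Irx5 was again Nr2f2. Likeness was Pearson's r of log2(mean normalised count + 0.01) with Irx5, over 1277 genes with a mean of at least 0.1 in a library and a range of at least 4-fold. The points share the genotype label, the day and the contrast by which Irx5 was chosen, so r is a description and carries no test. It was 0.981 for Nr2f2, 0.976 for Col5a3, a fibrillar collagen gene, 0.937 for Cd302, a lectin receptor gene, and 0.934 for Eps8l1 of the EPS8 family of actin regulators. For Cast, the calpain inhibitor calpastatin, and for Crnde r was 0.934, for Tpd52l1 of the D52 family 0.933, and for Luzp2, a leucine zipper protein gene, 0.932. In every library where Irx5 was low, Nr2f2, Col5a3, Eps8l1, Cast, Tpd52l1 and Luzp2 had means under 0.1. They passed the minimum only through libraries where Irx5 was high, so a high r follows in part from that minimum. Eps8l1 reached it only in Kmt2d+/βgeo day 2 (0.138). A total of 13 genes had an r of at least 0.9, and the same 13 did without the day 4 pair. Among them were Gm47283, annotated on chromosome Y (0.925), and Mid1 on chromosome X (0.920). The mean normalised count of Gm47283 was at least 0.669 in each library. Embryo sex is not among the labels used here, and its part in these levels was not tested.

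Without the day 4 pair, 7 of these 8 genes were still among the 8 most alike, with r from 0.925 for Luzp2 to 0.982 for Nr2f2, and Crnde, at 0.923, was no longer among them. By Spearman's rank correlation 3 of the 8 were, and Crnde came first with a rho of 0.881. Without the day 4 pair 3 of the 8 were again, but 6 genes had a higher rho than Crnde (0.829), and Nr2f2 and Col5a3 were highest (0.943). With a pseudocount of 0.1 in place of 0.01, 5 of the 8 were, and Eps8l1, Crnde and Tpd52l1 were not, with r of 0.919, 0.914 and 0.906. Luzp2 had the widest range, from 0.00824 in wild type day 0 to 2.62 in Kmt2d+/βgeo day 8, and its mean was 0.0502 under the Kmt2d+/βgeo label at day 4. Col5a3 ran from 0.0526 under the Kmt2d+/βgeo label at day 4 to 0.338 under that label at day 2. For 7 of the 8 genes the peak was in Kmt2d+/βgeo day 2 or day 8 and for Tpd52l1 (0.188) in day 0.

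**Figure D4:**
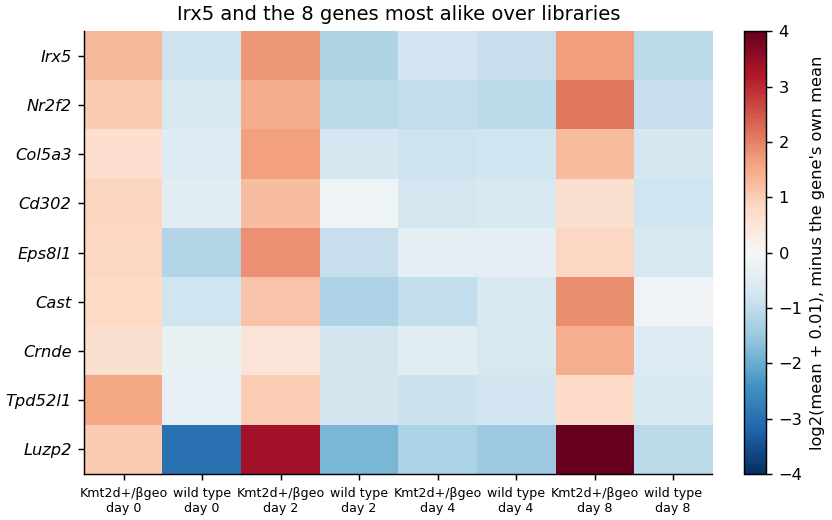
Log2(mean normalised count + 0.01) of Irx5 and the 8 genes most alike, minus each gene's own mean over the 8 libraries, with red above and blue below that mean and 1 column per library. Kmt2d+/βgeo days 0, 2 and 8 are red for each gene, and the column labelled Kmt2d+/βgeo day 4 is blue like those labelled wild type.

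Within a library, no gene followed Irx5 from cell to cell beyond a weak correlation. Irx5 had a UMI in at least 5% of thinned cells in 3 libraries, Kmt2d+/βgeo days 0, 2 and 8, and Pearson's r of log2(thinned count + 1) was averaged over these for 5028 genes. Mean r ran from -0.073 to 0.051, and no gene reached an r of 0.05 in each library. Cells of 1 library share its depth and its free RNA, and in counts this sparse such values are no finding.

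The genes at the ends of that narrow range were Sparc (0.051), Emp2 (0.044), Gpx4 and Mt3 (each 0.043) and Cryab (0.041) at the upper end and Olig2 (-0.073), Chd7 (-0.054), Eef1a1 (-0.047), Zeb1 and Lmo3 (each -0.041) at the lower. For the 8 genes most alike over libraries, mean r within libraries lay between -0.006 for Eps8l1 and 0.021 for Cd302 and Crnde, with 0.020 for Cast and -0.003 for Nr2f2. At this depth such values do not show whether those genes and Irx5 were in the same cells.

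The shares of cells with Irx5 differed modestly between classes of cells, each defined by a UMI of 1 other gene in thinned cells. In Kmt2d+/βgeo day 0, 10.2% (8.75 to 11.8) of 1578 cells with a UMI of Top2a, a topoisomerase of dividing cells, had an Irx5 UMI, against 5.84% (4.99 to 6.79) of 2723 cells without. In wild type day 0 these shares were 2.43% (1.74 to 3.30) and 1.37% (0.996 to 1.83), with overlapping intervals. Without thinning, where a deeper cell is likelier to show both genes, the day 0 intervals were apart under each label. The shares were 26.7% with and 14.3% without Top2a in Kmt2d+/βgeo day 0. In wild type day 0 they were 6.73% (5.78 to 7.78) and 3.05% (2.39 to 3.83). On later days 26 to 88 thinned cells labelled Kmt2d+/βgeo had a Top2a UMI, too few to tell the shares apart.

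The next shares are of libraries labelled Kmt2d+/βgeo. Cells with a UMI of Olig2, a factor of oligodendrocyte and ventral progenitors, held Irx5 in 6.21% (5.39 to 7.13) of 3074 cells at day 0, against 10.5% (8.85 to 12.4) of 1227 cells without. On day 2 it was 8.11% (7.10 to 9.20) of 2702 cells against 12.3% (10.98 to 13.8) of 2198, and on both days the intervals did not overlap. Without thinning the day 0 intervals did overlap, at 20.8% (19.6 to 22.1) and 24.9% (20.5 to 29.8), and those of day 2 did not, at 19.8% (18.5 to 21.1) and 28.6% (26.1 to 31.1). On day 8 it was 7.59% (5.45 to 10.2) against 9.07% (7.73 to 10.6), with overlapping intervals. Cells with a UMI of Sox9, a glial and progenitor factor, held Irx5 in 8.71% (7.39 to 10.2) against 6.65% (5.74 to 7.67) at day 0, 11.4% (10.1 to 12.8) against 8.86% (7.82 to 9.99) at day 2 and 9.02% (7.71 to 10.5) against 7.53% (5.24 to 10.4) at day 8. The Sox9 intervals were apart at day 2 only. Without thinning they were apart on days 0 and 2, at 24.2% (22.7 to 25.7) and 13.1% (11.3 to 15.2) and at 24.97% (23.5 to 26.5) and 15.2% (13.4 to 17.2). In wild type day 0 the Olig2 intervals were apart too, at 1.46% (1.12 to 1.88) with and 3.33% (2.12 to 4.95) without. Unthinned, they were apart at 4.79% (4.20 to 5.44) and 10.7% (5.80 to 17.5). In the other wild-type libraries the Olig2 intervals overlapped. The lowest of these Top2a, Olig2 and Sox9 shares in Kmt2d+/βgeo days 0, 2 and 8 was 5.84%, in day 0 cells without Top2a. That library is part of the contrast that chose Irx5. Whole wild-type libraries had 1.02% to 1.73%. In thinned cells a missing UMI does not show that a cell lacked the gene, so these classes are not cleanly separated. The part of cell class in the difference between labels was not tested.

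Luzp2, Nr2f2 and Crnde are among the 8 genes most alike over libraries. The shares given next are of Kmt2d+/βgeo days 0, 2 and 8. In thinned cells the share with Irx5 had overlapping intervals between cells with and without a UMI of each of them. For Luzp2 it was 6.07% (3.796 to 9.13) with and 7.56% (6.76 to 8.43) without at day 0, 11.1% (9.65 to 12.7) and 9.43% (8.44 to 10.5) at day 2, and 7.95% (6.41 to 9.71) and 9.52% (7.82 to 11.4) at day 8. For Nr2f2 it was 9.61% (6.92 to 12.9) with and 7.21% (6.42 to 8.07) without at day 0, 11.2% against 9.83% at day 2 and 6.00% against 9.25% at day 8. For Crnde it was 10.6% (7.12 to 15.1) against 7.24% (6.46 to 8.08) at day 0, 13.8% (9.70 to 18.8) against 9.80% (8.97 to 10.7) at day 2 and 8.12% against 8.79% at day 8. The Nr2f2 and Crnde classes were added after values had been seen.

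Without thinning, where a deeper cell is likelier to show both genes, the shares were farther apart on days 0 and 2 of Kmt2d+/βgeo. For Crnde they were 28.5% (25.4 to 31.8) with and 19.5% (18.2 to 20.9) without at day 0 and 31.4% (27.6 to 35.3) and 20.9% (19.6 to 22.1) at day 2. For Nr2f2 they were 29.4% (26.8 to 32.1) and 18.1% (16.8 to 19.5) at day 0 and 26.5% (24.1 to 28.9) and 20.4% (19.1 to 21.8) at day 2. For Luzp2 they were 24.2% (21.4 to 27.3) and 20.4% (19.1 to 21.8) at day 0 and 24.8% (23.2 to 26.5) and 18.7% (17.1 to 20.4) at day 2. All of these intervals were apart but those of Luzp2 at day 0, and at day 8 of Kmt2d+/βgeo the intervals of all 3 genes overlapped. Low libraries also had unthinned intervals apart. In wild type day 0 this held for Crnde (10.9% with and 4.40% without) and Nr2f2 (8.35% and 4.60%). It also held for Crnde in wild type day 2 and for Luzp2 in wild type day 8 (7.89% and 2.13%). In the day 4 library labelled Kmt2d+/βgeo it held for Crnde and Luzp2.

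For Apoe the shares with Irx5 in thinned cells labelled Kmt2d+/βgeo were 7.39% with and 7.60% without a UMI at day 0, and on days 2 and 8 all but 7 and 25 cells held Apoe. A UMI of Rbfox3, a marker of mature neurons, was held by 9, 51 and 59 thinned cells on days 0, 2 and 8, of which 0, 2 and 0 had Irx5. At day 8 the share was 0% (0 to 6.06) with Rbfox3 against 8.97% (7.78 to 10.3) of 2097 cells without, and the intervals did not overlap. That gap rests on 59 cells, and without thinning 6 of 119 cells, 5.04% (1.87 to 10.7), against 10.8% (9.64 to 11.9) had overlapping intervals. At day 0 it was 0% (0 to 33.6) against 7.46% and at day 2 3.92% (0.478 to 13.5) against 10.06% (9.23 to 10.9), with overlapping intervals. Median UMIs on the matrix genes were 12209, 7769 and 4497 in thinned cells with Irx5 and 11192, 7525 and 4432 in those without it, on days 0, 2 and 8.

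**Figure D5:**
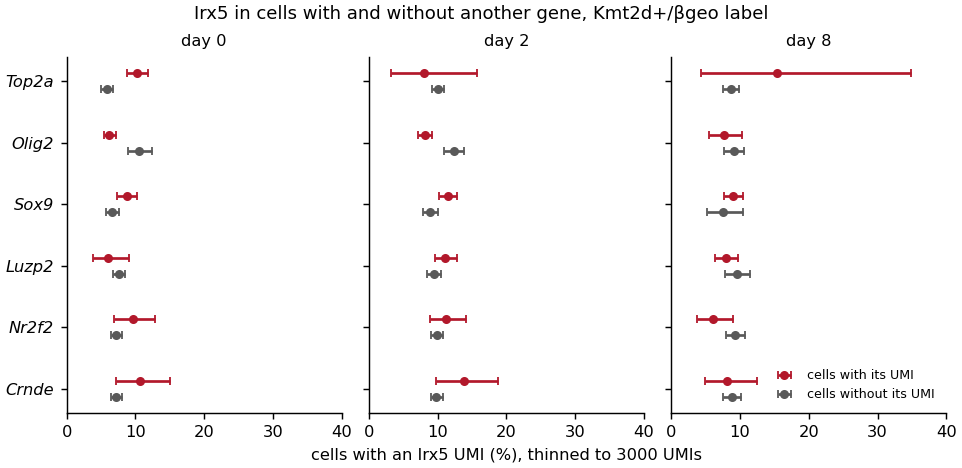
Share of cells with an Irx5 UMI among cells with (red) and without (grey) a UMI of another gene, in the 3 libraries labelled Kmt2d+/βgeo at days 0, 2 and 8, thinned to 3000 UMIs, with exact binomial 95% intervals. Among the 6 genes plotted, the intervals part for Top2a at day 0 (10.2% and 5.84%), for Olig2 at days 0 (6.21% and 10.5%) and 2 (8.11% and 12.3%) and for Sox9 at day 2 (11.4% and 8.86%).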

How the data were processed

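Libraries were made with 10x Genomics Chromium 3′ v3 kits. As the study's methods state, spliced molecules were counted against GRCm38, and the authors removed doublets and outlying cells before deposit. The submitters' processing notes name alevin, Salmon 1.3.0 and Seurat 3.2.2. The deposited matrix holds log2 values of size-factor normalised counts for 9140 genes and 30408 cells. Total UMIs per cell, in a second deposited table, are estimated counts, since alevin can split a molecule between features. Gene names and coordinates came from the deposited gene table, and 9062 of 9137 genes found in GENCODE M21 had the same coordinates there.

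Here log2 values were turned back into normalised counts and into estimated UMIs per cell, of which 86.8% were within 0.01 of a whole number. Estimated UMIs were rounded to whole numbers for thinning and for shares, a value midway to the even one, so that 0.5 became 0. Cells were thinned to 3000 UMIs without replacement. Ratios divide the mean normalised count under the Kmt2d+/βgeo label by that under the wild-type label, without a pseudocount. Shares have exact binomial intervals, levels exact Poisson intervals of rounded summed UMIs, and ratios exact conditional intervals of thinned counts. With 1 library per label and day no test was run within a day. Paired by day, the log2 ratios of days 2, 4 and 8 were given a two-sided exact sign-flip permutation test, added after the values were seen. The scripts were tested on simulated data, in Python 3.11.15 with numpy 2.4.6, scipy 1.17.1, pandas 2.3.3 and matplotlib 3.10.9.

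The gene, its lists and its cell classes were chosen with earlier results of these data known. Named are the Iroquois genes, Kmt2d and measured neighbours of Irx5, the most abundant member of each list and up to 3 members per direction past the threshold, the 8 genes most alike over libraries, the 5 highest and 5 lowest within libraries, and the class genes. Prox1, Pax6, Bbs2, Hotairm1, Ebf1, Gm47283, Mid1 and the astrocyte, progenitor and cell cycle markers given to show the spread of their lists were named outside this rule, after their values were seen. A neighbour of Irx5 that the rule names is not reported here. Of 2 promoters looked for in the RefSeq table, 1 was found, that of Crnde.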

Additional observations from a re-analysis of the deposited data

Results flagged for a closer look

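From day 0 to day 2 the mean level of Irx5 moved in opposite directions under the 2 labels, with a log2 ratio of 0.45 in libraries labelled Kmt2d+/βgeo and -0.45 in those labelled wild type. The same held from day 0 to day 8, with 0.38 and -0.28. Each direction rests on 1 library per day. In thinned cells the counting intervals of both day 8 changes include 0 and those of both day 2 changes do not. The difference between the labels was not itself tested.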

How the results depend on the processing

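The log2 ratio of Irx5 between labels stayed within its counting interval as a ratio of summed UMIs, without the 5% of cells with most UMIs, without cells that held Top2a, and from values of at least 1 UMI only, an alternative chosen after seeing the data. Few cells held Top2a on days 2, 4 and 8, so leaving them out could hardly move the ratio there. The interval is made from the counts thinned to 3000 UMIs, so those were not checked against it. Thinned to 1500 UMIs it was 3.04 at day 0 and 3.57 at day 8, above that interval, and stayed within it on days 2 and 4. At that depth the wild-type libraries held few Irx5 UMIs. As a difference of mean log2 values, where low counts give small differences, it kept its sign but was 0.21, 0.30 and 0.23 on days 0, 2 and 8. On that scale the change from day 0 under the Kmt2d+/βgeo label was 0.080, -0.20 and 0.0066 on days 2, 4 and 8. The number of regional genes past the threshold was 0, 0 and 1 on days 0, 2 and 8 by mean log2. With a minimum mean of 0.5, which leaves out Nr2f2 and Nr4a2 at those days, it was 1 at day 0 and 1 at day 2. The share of cells with Irx5 changed with depth and with the number of UMIs required in each library. In cells that were not thinned, the difference between cells with and without another gene moved beyond the interval of the share with that gene in 12 of 18 cases. Of the 5 genes highest within libraries, 2 stayed among the 5 highest there. Paired by day, an alternative chosen after seeing the data, the mean log2 ratio was 2.13 over days 2, 4 and 8 and 3.10 without day 4. Sums of 126 to 375 Irx5 UMIs in the 5 low libraries limit their order.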
